A study of Mus musculus with 6 samples.

Results

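The constitutive proteasome subunits and activators were taken as the protein-coding genes of the deposited table whose symbol begins with Psma, Psmb, Psmc, Psmd, Psme, Psmf or Psmg followed by a number, without the immunoproteasome subunits Psmb8, Psmb9 and Psmb10. The rule gave 47 genes among 43346 rows, of which 22032 were protein-coding. They comprised 8 core alpha subunits, 8 core beta subunits, 6 ATPase and 11 non-ATPase subunits of the regulatory particle, 6 activators or regulators, 7 assembly factors and 1 gene that shares only the name. That last gene, Psmc3ip, encodes a meiotic recombination factor. The rule used symbols and no measured value, and 45 of the 47 genes passed the filter on low counts.

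The proteasome degrades proteins that carry ubiquitin. Its 20S core is a barrel of outer alpha rings and inner beta rings, with the proteolytic sites inside. The 19S regulatory particle caps the barrel, where non-ATPase subunits bind substrates and remove ubiquitin and an ATPase ring unfolds them. Other activators can dock in place of the cap, and dedicated chaperones assemble both particles. In skeletal muscle the proteasome breaks down myofibrillar proteins, and its transcripts are known to increase in many forms of atrophy.

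RNA was sequenced from the gastrocnemius, a calf muscle, of male Vdrfl/fl.actin iCre mice aged 6 months, with 1 library from each of 6 mice. In this strain exon 3 of Vdr, the vitamin D receptor gene, lies between loxP sites, and the transgene Tg(ACTA1-cre/Esr1*)2Kesr expresses a tamoxifen-dependent Cre recombinase under a skeletal actin promoter. The 3 knockout mice received tamoxifen at 100 mg/kg in 10% ethanol and corn oil for 5 days, and the 3 vehicle mice of the same genotype received the ethanol and corn oil alone. All ate a diet with vitamin D3 at 3.4 IU/g and 0.81% calcium, and muscle was taken after tests made 10 days after the last injection. Tamoxifen-treated Vdrfl/fl mice without Cre were not analysed here, so Vdr deletion, Cre activity and tamoxifen cannot be told apart.

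Libraries held 30486874 to 39909535 counted reads, of which the 47 genes took 0.465% to 0.615%. Vdr itself had 52, 27 and 40 reads in the knockout libraries and 46, 48 and 61 in the vehicle libraries (log2 fold change -0.37, SE 0.37, edgeR adjusted p = 0.848). The groups overlapped, and counts over the whole gene check the loss of 1 exon only weakly. Knockout replicate 2 stood apart from the other libraries. Its 10 most abundant genes held 15.1% of reads against 20.8% to 25.2% elsewhere, and 12 markers of slow fibres summed to 38069 CPM (counts-per-million, reads scaled to a common library size) against 1262 to 11304. The 8 markers that define skeletal muscle, among them Acta1 and Ckm, summed to 111887 to 172396 CPM. In such bulk samples, fewer cells of a type and less RNA per cell cannot be told apart.

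Proteasome transcripts were abundant in this muscle. The deposited FPKM, read counts scaled by gene length and library total, allow levels of different genes to be set side by side. Over the 6 libraries the 45 genes had a median level of 51.0 FPKM, against 2.93 FPKM over the 15583 genes tested. Median levels were 53.6 FPKM for alpha subunits, 107 for beta subunits, 104 for ATPases and 51.0 for non-ATPase subunits. They were 16.6 FPKM for activators and regulators and 6.37 for assembly factors. Structural subunits thus lay mostly above the factors that regulate or assemble them, and the ranges met only at the low end of the non-ATPase subunits.

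Psmb7, which carries the trypsin-like site of the core, had the highest level at 248 ± 44.8 FPKM (SD, n = 6) and ranked 225 among the genes tested. Psmd8, a subunit of the lid of the cap, had 147 ± 41.8 FPKM, the highest level and also the widest spread of the non-ATPase subunits. Psma2, an alpha subunit, had 146 ± 21.3 FPKM. Psmd3, another lid subunit, was the lowest structural subunit at 15.4 ± 1.31 FPKM. Among the factors outside the particle, Psmf1, a regulator known as an inhibitor of the core, had 2.28 ± 0.372 FPKM, and the alpha ring chaperone Psmg3 had 2.39 ± 0.511 FPKM.

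The order within a ring depended on the length by which reads were divided. The highest and lowest alpha subunits differed 3.72-fold by the listed gene length and 2.79-fold by the length of the principal GENCODE M21 transcript. Psma7 was the lowest alpha subunit by the former length and the highest by the latter, while Psma2 was the highest by the former and the lowest by the latter. Beta subunits differed 4.85-fold and 3.19-fold, and Psmb7 was highest by both lengths. Psmd8 and Psmd3 were the highest and lowest non-ATPase subunits by both lengths as well.

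**Figure D1:**
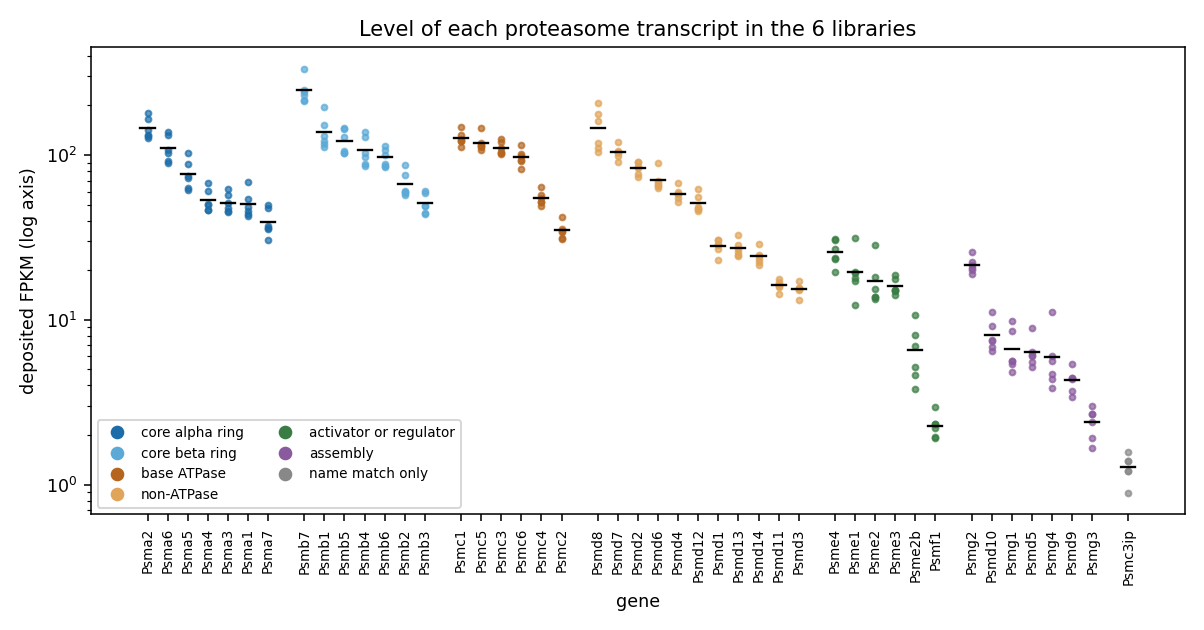
Deposited FPKM on a log axis for the 45 genes that passed the filter, sorted by mean level within each particle. Points are the 6 libraries and the black bar is their mean. Psmb7 is highest at 248 FPKM, and activators and assembly factors lie below most structural subunits.

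The members restricted to other tissues were at or near 0. Psmb11, the beta subunit of the thymic cortex, had 0 reads in each library, which allows at most 0.0752 to 0.0984 CPM by counting error alone. Psma8, the alpha subunit of the testis, had 0, 0 and 9 reads in the knockout libraries and 0, 4 and 1 in the vehicle libraries. Neither passed the filter.

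Knockout was compared with vehicle to ask how these transcripts differ once loss of Vdr has been induced in adult mice. All 17 subunits of the 19S cap had a lower estimate in knockout muscle, with a median log2 fold change of -0.25. Of the 14 core subunits tested, 13 had a lower estimate, with a median of -0.17. Of the 6 activators and regulators, 5 had a higher estimate, with a median of 0.16, and the 7 assembly factors divided into 4 higher and 3 lower, with a median of 0.02. Over all genes tested the median was 0.02, and 52.9% had a higher estimate. None of the 45 genes passed the threshold, an edgeR adjusted p below 0.05, and neither did any other gene (0% of those tested). An unadjusted p below 0.05 was reached by 1159 genes (7.44%), limma-voom also called 0 genes, and DESeq2 called 109, among them 1 member.

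Psmd8 was the only member at an unadjusted p below 0.05, where 3.42% of all genes tested were lower and 4.02% higher. In 11 of the 45 members the 3 knockout libraries lay entirely below the 3 vehicle libraries, where 6.48% of all genes did. The 11 were Psmb7 of the core and 10 cap subunits. No member had its knockout libraries entirely above the vehicle libraries, where 5.83% of all genes did. Subunits of a complex vary together from library to library, so these counts do not stand on independent genes.

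Scaling mattered for these counts. CPM were scaled by TMM, which sets libraries level by the bulk of their genes. Scaled by library total alone, 65.3% of all genes had a higher estimate in knockout, and the median of all genes moved to 0.12. Under that scaling 14 of 17 cap subunits and 10 of 14 core subunits had a lower estimate, and 4 cap subunits did not overlap between the groups, where 4.4% of all genes did so on the lower side. With the size factors of DESeq2 the count was 10 again, where 6.74% of all genes did. Relative to the median of all genes, the cap median was -0.27, and between -0.32 and -0.16 in the 16 alternative fits. The same difference was -0.19 for the core, with a range from -0.26 to -0.04.

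Fewer libraries make separation easier for every gene, so each count without 1 library has its own background. Without knockout replicate 1, 2 or 3, the knockout libraries of 14, 10 and 10 cap subunits lay below all vehicle libraries, where 14.6%, 10.2% and 10.3% of all genes did. Without vehicle replicate 1, 2 or 3, the count was 10, 12 and 10 cap subunits, where 12.8%, 10.1% and 9.53% of all genes did. In either direction together, 12.3% of all genes were without overlap when all 6 libraries were used.

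**Figure D2:**
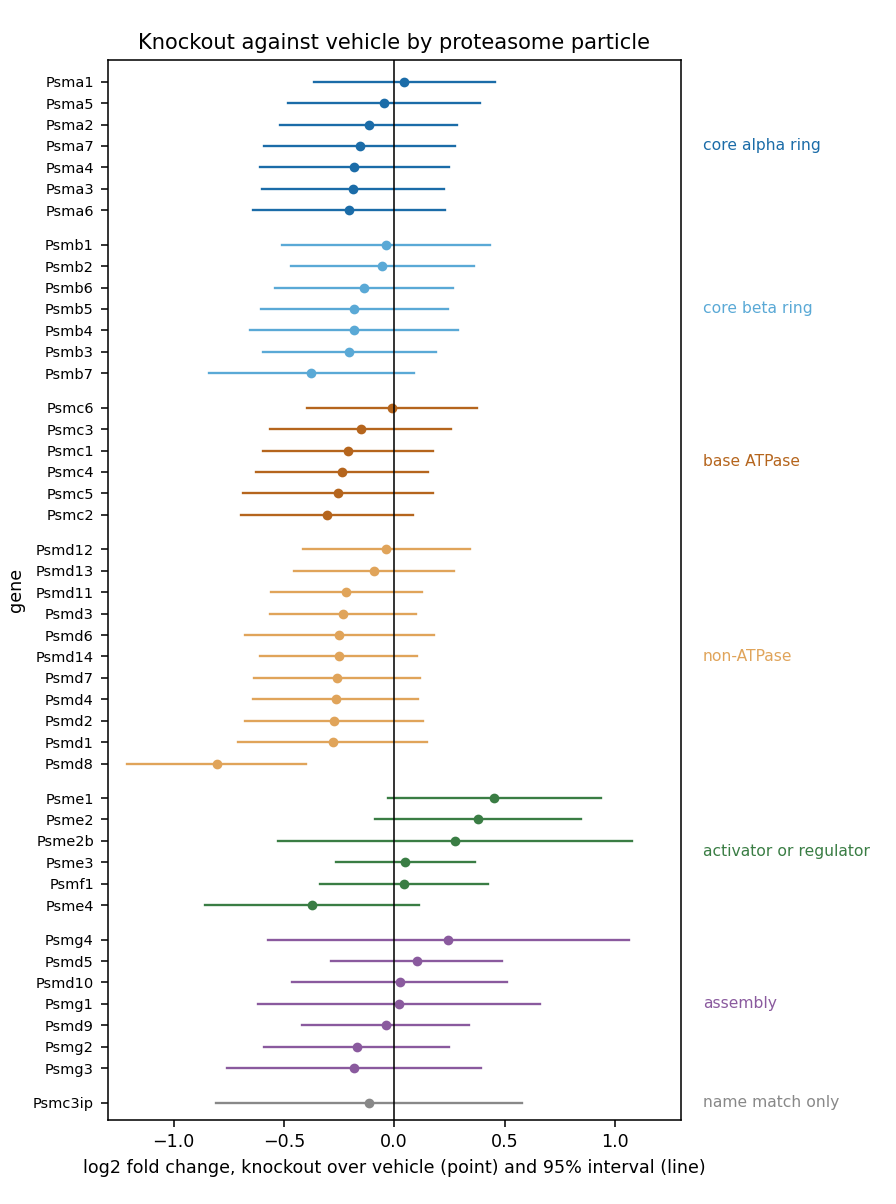
Log2 fold change of knockout over vehicle (points) with its 95% interval (lines) from edgeR, for the 45 genes tested, grouped by particle, with 3 libraries per group. All ATPase and non-ATPase points lie below 0, and only the interval of Psmd8, from -1.21 to -0.40, leaves out 0.

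The non-ATPase subunits of the cap held the widest difference. Psmd8 (ENSMUSG00000030591, chromosome 7, 29174188 to 29180701, mm10) encodes a lid subunit that joins late in lid assembly. It had 176, 161 and 161 CPM in the knockout libraries and 259, 278 and 333 CPM in the vehicle libraries. The knockout values lay close together, and all were far below the lowest vehicle value. Mean levels were 166 ± 8.80 and 290.2 ± 38.6 CPM (SD, n = 3 each), 42.8% lower in knockout by the fitted log2 fold change of -0.80 (SE 0.18). The unadjusted p was 0.00138 and the edgeR adjusted p was 0.449.

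DESeq2 gave Psmd8 an adjusted p of 0.00570 and called it, the only one of the 16 alternative fits to do so. All 16 gave a lower estimate and an unadjusted p below 0.05. Leaving out 1 library at a time moved the estimate between -0.88 and -0.70, and the adjusted p over all 16 ran from 0.00570 to 0.991. None of the 3052 words of 50 bases in Psmd8 transcripts occurs in another gene of the annotation, and no exon of another gene overlaps it.

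The level of Psmd8 was also set against the rest of its own particle, as a description. Its CPM divided by the median CPM of the other 16 cap subunits was 1.10, 1.12 and 1.14 in the knockout libraries and 1.58, 1.73 and 1.67 in the vehicle libraries. This ratio, in which the scaling of the library cancels, averaged 1.12 ± 0.0198 and 1.66 ± 0.0740 (SD, n = 3 each). The log2 difference was -0.57. No test is given, since Psmd8 was singled out for this ratio after its values were seen.

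The other 16 cap subunits had log2 fold changes from -0.31 to -0.01, each with an SE of 0.147 to 0.192 and an unadjusted p of 0.111 or more. Psmd2, a large scaffold of the base, had 327, 275 and 316 CPM in the knockout libraries and 358, 372 and 379 CPM in the vehicle libraries (log2 fold change -0.27, SE 0.18). Its groups did not overlap, and the vehicle values were close together. Psmd1, the other large scaffold, had 215, 147 and 193 CPM against 231, 226 and 217 CPM. Knockout replicate 2 was far below the rest, and replicate 1 nearly reached the lowest vehicle library.

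In 5 further non-ATPase subunits the knockout libraries also lay below all vehicle libraries. The lid subunit Psmd3 had 71.7, 68.2 and 70.9 CPM in knockout and 78.9, 79.5 and 89.2 CPM in vehicle libraries. Psmd11, also of the lid, had 99.9, 88.7 and 99.6 CPM against 112, 115 and 107 CPM. Psmd7, the partner of the deubiquitinase, had 159, 138 and 157 CPM against 176, 168 and 200.3 CPM. Psmd14, the deubiquitinase that removes ubiquitin chains as substrates enter, had 66.5, 61.9 and 59.5 CPM against 68.7, 69.8 and 85.3 CPM. In Psmd14 the gap between the groups was narrow, and vehicle replicate 3 stood above the other vehicle libraries. Psmd4, a ubiquitin receptor of the base, had 159.8, 144 and 144 CPM against 175, 166 and 199 CPM (log2 fold change -0.27, SE 0.17).

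Of the lid subunits whose groups overlapped, Psmd6 had an estimate of -0.25, Psmd13 of -0.09 and Psmd12 of -0.04. Exons of Psmd13 share 10.1% of their bases with the opposite-strand gene Sirt3, and 17.8% of the 50-base words of Psmd2 occur in other genes, so their reads are less certain than those of Psmd8. Of the 50-base words of Psmd11, 7.34% occur in other genes.

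The ATPases unfold substrates and thread them into the core. Psmc2 had 172, 152 and 149 CPM in the knockout libraries and 180.1, 183 and 222 CPM in the vehicle libraries, with no overlap (log2 fold change -0.31, SE 0.17, edgeR adjusted p = 0.730). Psmc1 had 187, 176 and 174 CPM against 197, 189.9 and 234 CPM, also without overlap, but 14.1% of its 50-base words occur in other genes. Psmc4 had 124, 106 and 99.4 CPM against 128, 115 and 145 CPM, where knockout replicate 1 exceeded vehicle replicate 2. Psmc6 was nearly level, at an estimate of -0.01, and Psmc3 and Psmc5 had -0.15 and -0.25. Exons of Psmc3 share 8.25% of their bases with the opposite-strand gene Slc39a13.

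**Figure D3:**
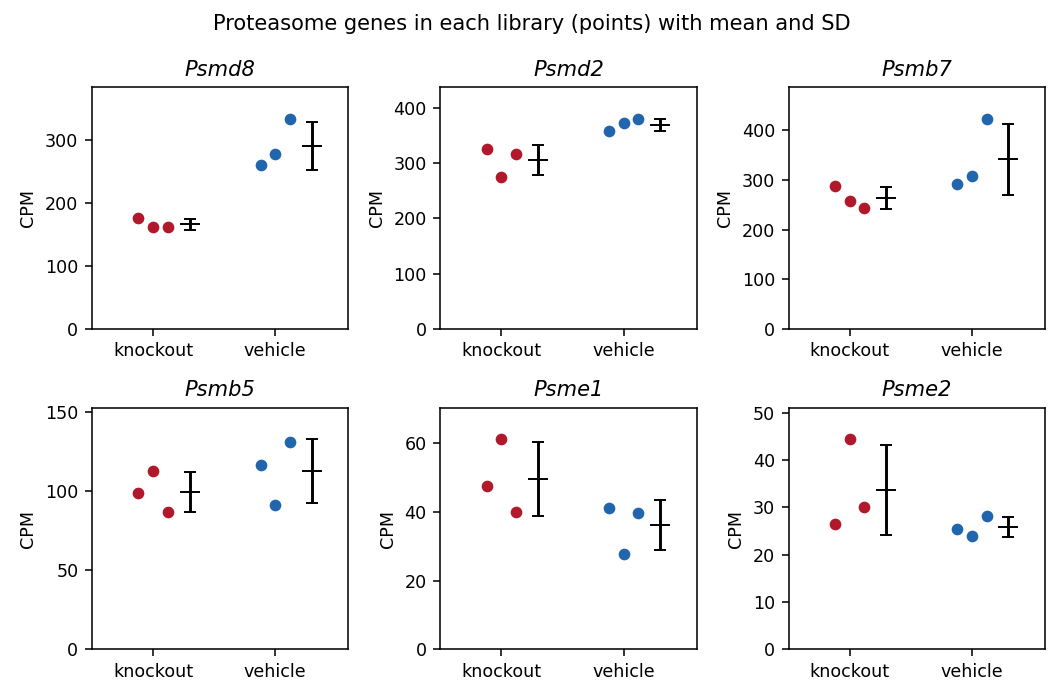
TMM-scaled CPM of 6 genes in each library, with knockout and vehicle points and the mean and SD of 3 libraries beside them. The knockout points of Psmd8, Psmd2 and Psmb7 lie below all vehicle points, while those of Psmb5, Psme1 and Psme2 overlap them.

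Sequence upstream of the cap genes is shown because many of these genes share a short motif there. RefSeq promoter windows (GRCm38.p6, the 250 bases before the start) were found for 39 of the 47 members. The core of the binding motif of ETS factors, CCGGAAG or CTTCCGG on the other strand, occurred in 12 of the 39 (30.8%), against 7.05% of all 27025 genes with a window and 13.2% of the 10255 tested genes with one. It occurred in 3 of 5 ATPase and 5 of 9 non-ATPase genes, and in 0 of 7 alpha and 0 of 5 beta genes. Of these 8 cap genes, the groups did not overlap in Psmc1, Psmc2, Psmd2, Psmd4 and Psmd11 and overlapped in Psmc6, Psmd6 and Psmd12. The other cap genes had no match or no window. Of those, the groups did not overlap in Psmd1, Psmd3, Psmd7, Psmd8 and Psmd14 and overlapped in Psmc3, Psmc4, Psmc5 and Psmd13. A link between motif and difference was not tested. The motif is given in capitals for 6 of the 8 cap genes that hold it. It could not be shown outside the bounds of the gene for Psmd6 and Psmd12.
Psmc1, chr12:100110159-100110185, plus strand: gctttggtggatgcaCTTCCGGcggtg
Psmc2, chr5:21785176-21785212, plus strand: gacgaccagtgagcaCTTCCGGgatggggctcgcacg
Psmc6, chr14:45329709-45329745, plus strand: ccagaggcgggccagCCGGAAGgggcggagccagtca
Psmd2, chr16:20651611-20651647, plus strand: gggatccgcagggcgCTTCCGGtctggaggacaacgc
Psmd4, chr3:95042718-95042754, minus strand: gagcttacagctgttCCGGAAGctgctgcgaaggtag
Psmd11, chr11:80428589-80428614, plus strand: aacgcgagggcgggtCTTCCGGgtgt

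The window of Psmd8 held none of the motifs searched, and 172 bases of it are printed as the sequence before the member with the widest difference.
Psmd8, chr7:29180702-29180873, minus strand: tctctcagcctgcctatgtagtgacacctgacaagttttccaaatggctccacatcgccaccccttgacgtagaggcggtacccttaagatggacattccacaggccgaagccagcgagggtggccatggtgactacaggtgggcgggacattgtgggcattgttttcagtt
The other motifs searched were the antioxidant response element core TGACNNNGC, the type of site that Nfe2l1 and Nfe2l2 bind, and the CCAAT box, each on both strands. They occurred in 5 and 14 of the 39 members (12.8% and 35.9%), near the 12.2% and 36.0% of tested genes. A match describes the letters only and was not tested as a site.

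In the core, Psmb7 was the only subunit whose groups did not overlap. Psmb7 had 288, 257 and 244 CPM in the knockout libraries and 293, 308 and 424 CPM in the vehicle libraries (log2 fold change -0.38, SE 0.21, edgeR adjusted p = 0.717). The groups did not overlap, but the gap was small, and vehicle replicate 3 stood far above the rest. Without that library the estimate was -0.19. Exons of Psmb7 share 11.8% of their bases with the opposite-strand gene Nek6, and the strand setting of the counting is not given in the sources used here.

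The other catalytic subunits overlapped between the groups. Psmb5, with the chymotrypsin-like site, had 99.0, 113 and 87.2 CPM in knockout and 116, 91.4 and 131 CPM in vehicle libraries (log2 fold change -0.18, SE 0.19). Psmb6, with the caspase-like site, had 175, 188 and 155 CPM against 195, 164 and 209.7 CPM (log2 fold change -0.14, SE 0.18). In both, vehicle replicate 3 was highest and knockout replicate 3 lowest. Of the 50-base words of Psmb5, 54.1% occur in other gene models, so its count is uncertain. Both genes carry an antioxidant response element core before the start, in capitals here.
Psmb5, chr14:54618019-54618057, minus strand: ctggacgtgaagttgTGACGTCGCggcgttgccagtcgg
Psmb6, chr11:70525333-70525356, plus strand: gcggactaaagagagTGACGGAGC

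Psmb3, a structural beta subunit, had 111, 119.95 and 96.5 CPM in knockout and 117, 115 and 145 CPM in vehicle libraries. In the alpha ring, which gates the barrel, Psma6 had 121, 150.2 and 108 CPM against 138, 129 and 170.1 CPM. Psma3 had 192, 196 and 174 CPM against 186, 204 and 251 CPM. Vehicle replicate 3 was again the highest library in each of these. Of the 50-base words of Psmb3 and Psma3, 17.8% and 15.4% occur in other genes. The estimates of the 7 alpha subunits tested ran from -0.21 to 0.05, and those of the 7 beta subunits from -0.38 to -0.04.

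The immunoproteasome subunits, which replace the catalytic subunits after interferon, are given for comparison with their constitutive partners. Psmb8 had 5.44, 12.5 and 8.71 CPM in knockout and 3.44, 2.96 and 4.25 CPM in vehicle libraries, without overlap (log2 fold change 1.32, SE 0.32, edgeR adjusted p = 0.519). Its constitutive partner Psmb5 exceeded it in FPKM by 57.2, 28.3 and 31.4 times in knockout and by 106, 97.0 and 96.7 times in vehicle libraries. For Psmb6 over Psmb9 the ratio was 213, 57.9 and 63.2 in knockout and 206, 243 and 280.4 in vehicle libraries, and knockout replicate 1 lay among the vehicle values. For Psmb7 over Psmb10 it was 26.6, 18.8 and 22.5 against 26.1, 40.7 and 42.3. Constitutive subunits were thus in large excess in every library.

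Among the activators, the interferon-inducible pair Psme1 and Psme2, which form a ring that opens the core without ubiquitin, had the highest estimates of the 45 genes. Psme1 had 47.6, 61.1 and 39.9 CPM in knockout and 41.2, 27.7 and 39.6 CPM in vehicle libraries (log2 fold change 0.45, SE 0.22, edgeR adjusted p = 0.685). Psme2 had 26.5, 44.4 and 30.0 CPM against 25.3, 24.0 and 28.1 CPM (log2 fold change 0.38, SE 0.21, edgeR adjusted p = 0.717). In both genes the groups overlapped and knockout replicate 2 was highest. Without that library the estimates were 0.27 for Psme1 and 0.13 for Psme2, and without vehicle replicate 2 that of Psme1 was 0.28. Psme2b had 6.37, 7.90 and 3.66 CPM against 7.03, 3.26 and 4.51 CPM, but 69.3% of its 50-base words occur in other genes, mainly Psme2. Of the 50-base words of Psme2, 28.3% occur in other genes, mainly Psme2b, so the count of Psme2 is also less certain.

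Marker lists were set beside this pair. A list of 14 interferon-induced genes, which holds Psmb8, Psmb9 and Psmb10, had 14 higher estimates, of which 10 were at an unadjusted p below 0.05 and none passed the threshold in edgeR. Over all genes tested, 4.02% were higher at that level. Its summed level was 154 to 331 CPM in knockout and 137 to 158 CPM in vehicle libraries. Of 10 macrophage markers tested, 9 had a higher estimate, 7 of them at an unadjusted p below 0.05. The 11 in the table summed to 46.3 to 178 CPM in knockout and 38.5 to 69.3 CPM in vehicle libraries. Both lists were high in knockout replicates 2 and 3. Psme2 was clearly high only in replicate 2, with 30.0 CPM in replicate 3 against 28.1 CPM in vehicle replicate 3. Psme1 lay above all vehicle libraries in knockout replicates 1 and 2 but not in replicate 3. The 8 adipocyte markers all had higher estimates, 7 of them at an unadjusted p below 0.05, and summed to 322 to 939 CPM in knockout and 232 to 347 CPM in vehicle libraries. They were high in knockout replicates 1 and 2, as Psme1 was. The 8 markers of fibro-adipogenic cells also had higher estimates, 2 of them at that level, and were high in knockout replicates 2 and 3. The 6 smooth muscle markers all had lower estimates, 3 of them at that level, where 3.42% of all genes were lower. Of these 6, Des also stands among the 8 markers that define skeletal muscle, and it was not at that level. None of 8 lymphocyte markers passed the filter, and their summed level was at most 0.689 CPM. The 8 Schwann cell markers all had lower estimates, and 6 of 8 endothelial markers had higher ones. The 6 erythroid markers divided into 3 higher and 3 lower. No Schwann cell, endothelial or erythroid marker was at an unadjusted p below 0.05. The part of any of these lists in the values of Psme1 and Psme2 was not tested.

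Psme4 was the only one of the 6 activators and regulators with a lower estimate. It encodes an activator that caps the core in the nucleus, and it had 214, 143 and 213 CPM in knockout and 208, 262 and 269 CPM in vehicle libraries (log2 fold change -0.37, SE 0.22). Knockout replicate 2 was lowest, the groups overlapped, and the estimate without that library was -0.21. Psme3, a nuclear relative of Psme1, was the steadiest of the 45 genes, between 45.9 and 49.3 CPM in the 6 libraries (log2 fold change 0.05, SE 0.14). Psmf1 lay between 13.0 and 16.7 CPM, with an estimate of 0.04.

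The assembly factors had estimates from -0.18 to 0.25, and all overlapped between the groups. Psmg2, whose product pairs with that of Psmg1 to order the alpha ring, had 26.1, 19.996 and 18.8 CPM in knockout and 22.8, 21.6 and 28.6 CPM in vehicle libraries. Psmg3 had 6.08, 6.80 and 6.54 CPM against 9.04, 4.91 and 8.11 CPM. The base chaperones Psmd5, Psmd9 and Psmd10 had estimates of 0.10, -0.04 and 0.03. Psmc3ip had 2.41, 2.23 and 2.06 CPM against 2.97, 1.64 and 2.63 CPM, and its level of 1.28 FPKM was the lowest of the 45 genes. Its exons share 21.2% of their bases with the opposite-strand gene Mlx.

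Variation between libraries followed the particles. Vehicle replicate 3 was the highest library in 12 of 14 core and 14 of 17 cap subunits, while it was highest in 20.2% of all genes tested. Knockout replicate 3 was lowest in 12 of 14 core and 9 of 17 cap subunits, against 13.8% of all genes tested. Knockout replicate 2 was lowest in 7 of 17 cap and 0 of 14 core subunits, against 26.9% of all genes tested. Its median deviation from the gene means, on the log2 scale, was -0.18 in the cap, 0.14 in the core, 0.38 in the activators and 0.30 in the assembly factors.

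**Figure D4:**
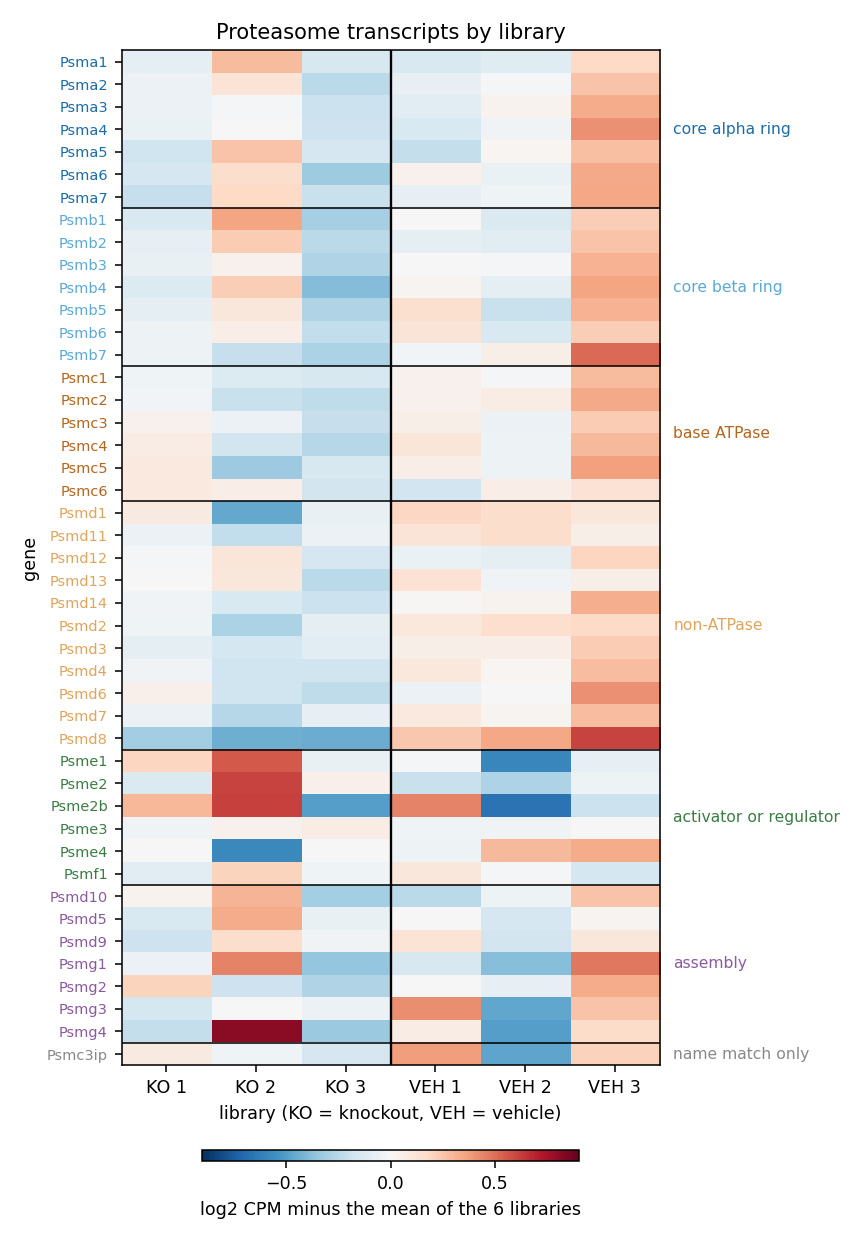
Log2 CPM of each of the 45 genes minus its mean over the 6 libraries, in colour, with genes in rows by particle and libraries in columns. Vehicle replicate 3 is high across core and cap, and knockout replicate 2 is low in most of the cap and high in most activators and assembly factors, with Psme4 low.

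The core and cap estimates therefore depended on single libraries to a different degree. Without vehicle replicate 3, 15 of 17 cap subunits and 9 of 14 core subunits had a lower estimate, with medians of -0.15 and -0.03. Without knockout replicate 2, all 17 cap and all 14 core subunits did, with medians of -0.20 and -0.24, and the activator median was 0.03. Without knockout replicate 3 the core median was -0.08, with 10 of 14 lower, and without vehicle replicate 2 the activator median was 0.04. The median SD of log2 CPM over the 6 libraries was 0.21 for the 45 genes, against 0.32 over all genes tested. The 45 genes were also more abundant, at a median of 51.0 against 2.93 FPKM, and the comparison was not matched for level.

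Fibre-type markers also separated the libraries. The 12 slow-fibre markers all had higher estimates in knockout, and their mean deviation on the log2 scale was 0.09, 2.36 and 0.74 in knockout and 0.81, -1.87 and -2.13 in vehicle libraries. The 12 fast-fibre markers had 11 lower estimates. The cap median in the same libraries was -0.03, -0.18 and -0.16 in knockout and 0.06, 0.02 and 0.28 in vehicle. The libraries with the highest and lowest slow-fibre markers, knockout replicate 2 and vehicle replicate 3, had the lowest and highest cap medians. Vehicle replicate 1, however, was next highest in both. The part of fibre type in the proteasome values was not tested.

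**Figure D5:**
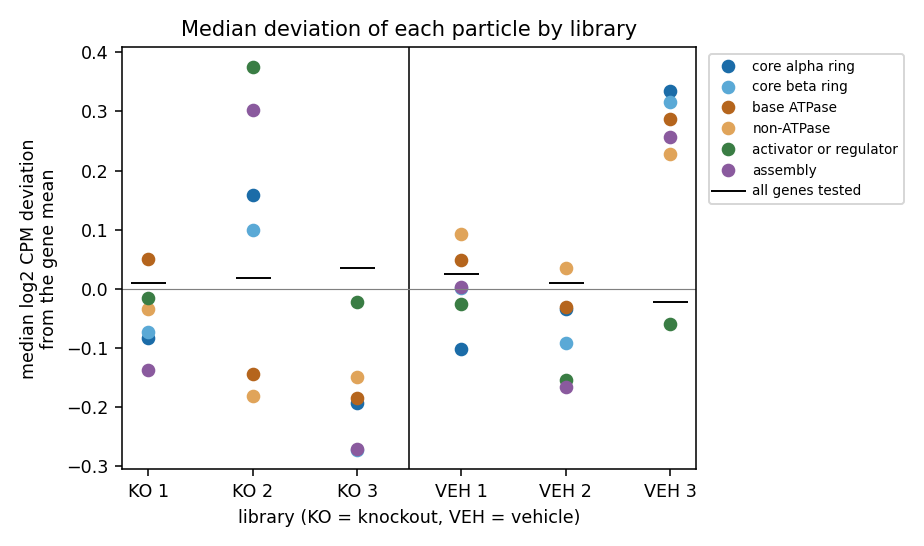
Median over the genes of each particle of the deviation of log2 CPM from the gene mean, for each of the 6 libraries. Coloured points are particles and black dashes are all genes tested. Vehicle replicate 3 is at 0.33 for the alpha ring, 0.32 for the beta ring, 0.29 for the ATPases and 0.23 for the non-ATPase subunits. The particles lie widest apart in knockout replicate 2.

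Other genes of the pathway more often had a lower than a higher estimate. Leaving out Psmb8, Psmb9 and Psmb10, which all had higher estimates, 33 such genes were tested. Of these, 26 had a lower and 7 a higher estimate, where 47.1% of all genes tested had a lower one, and the median was -0.11. None passed the threshold. At an unadjusted p below 0.05, 4 were lower and 0 higher, where 3.42% of all genes were lower and 4.02% higher. Of the 3 left out, Psmb8 and Psmb9 were higher at that level. The remaining subunit genes Adrm1 and Shfm1 had -0.14 and -0.10, and the core assembly factor Pomp had -0.15. The 9 transcription control genes tested gave 8 lower estimates, and the 9 shuttle and extraction factors also gave 8. Ddi2, with an estimate of -0.23, stands in both lists and is counted in each.

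Nfe2l1, which induces proteasome genes when the proteasome is impaired, had a log2 fold change of 0.08 (SE 0.27). Nfe2l2, a stress-activated relative, had 130, 105 and 143 CPM in knockout and 166, 181 and 248 CPM in vehicle libraries, without overlap (log2 fold change -0.65, SE 0.21, edgeR adjusted p = 0.628). Maff and Mafk, small partners of these factors, had estimates of -0.83 and -0.74 with overlap. Ubb, which encodes polyubiquitin, had 489.5, 421 and 458 CPM against 520.3, 645 and 612 CPM, without overlap.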

How the data were processed

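The deposited table holds whole-number read counts per gene and FPKM for 6 libraries, made by the authors from TruSeq Stranded mRNA libraries, per the labels' protocols. The submitters' processing notes name bcl2fastq, STAR 2.6.1c, featureCounts from Subread 1.5.1 and the mm10 genome. Neither the annotation release nor the strand setting is given in the sources used here. Recomputing FPKM from each count, with 1 base added to the listed length and the total of its library, returned the deposited values.

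Tests used edgeR 4.0.16 under R 4.3.3: filterByExpr (minimum count 10, minimum total 15) kept 15583 genes, TMM factors scaled the libraries (0.912 to 1.13), and a robust quasi-likelihood test compared 3 knockout with 3 vehicle mice, two-sided, with Benjamini-Hochberg adjustment over all genes tested and a threshold of 0.05. Library totals of 30486874 to 39909535 put 3 counts at 0.0752 to 0.0984 CPM; such limits cover counting error only. Nothing was pooled, and p-values measure the spread between these mice. The fit was tested on simulated data. Alternatives were DESeq2 1.42.0, limma 3.58.1, other scalings and filters, log2(FPKM + 0.1 or 1) and each library left out. The counts of non-overlapping genes, the cap counts and the principal transcript lengths were added after seeing the data.

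Members named with all their values were the catalytic subunits, the 2 of smallest p in each particle, those at an unadjusted p below 0.05 or without overlap, those that failed the filter and those whose name continues after the digits. Of related lists, up to 3 genes of smallest p were eligible, plus Psmb8, Psmb9, Psmb10 and Nfe2l1. Members named beyond this were chosen after their values were seen. Members and lists were chosen with earlier results of these data known. Paaf1 and Adgre1 were not analysed here; Sem1 stands under its older symbol Shfm1. The values of 1 gene of the related lists are not reported here.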

Additional observations from a re-analysis of the deposited data

How the results depend on the processing

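No paired analysis was possible because the sample titles number single animals and pair none across the groups. The number of genes past the threshold, 0 with edgeR, was 4 with DESeq2 size factors, 109 with DESeq2 and 29 with no filter on low counts, and 0 to 24 when 1 library was left out. Genes at an unadjusted p below 0.05 numbered 1159, and 594 to 1940 with a library left out. Of the members, 1 passed the threshold with DESeq2, and 0 with any library left out. Members at an unadjusted p below 0.05 numbered 1 (2.22% of those tested), where 7.44% of all genes were at that level. They numbered 2 with scaling by library total, 2 with no filter and 1 to 2 with a library left out. The second member was Psme1 with either of the first settings, and Psme1 or Psme2 with a library left out. The number of all genes at that level was nearly unchanged with scaling by library total. It was larger with no filter, where more genes were tested. Members with a higher estimate numbered 10, 17 with scaling by library total and with log2(FPKM + 0.1) or log2(FPKM + 1), and 4 to 15 with a library left out. Members without overlap between the groups numbered 11 of 45, where 12.3% of all genes were without overlap. With scaling by library total they numbered 5, of which 1 was higher and 4 lower in knockout, where 10.8% of all genes were. With a library left out they numbered 12 to 18, where 18.1% to 30.9% of all genes were. Fewer libraries make overlap rarer for all genes. For the cap the counts were 10, 4 and 10 to 14, all lower in knockout. On that side alone 6.48%, 4.4% and 9.53% to 14.6% of all genes were without overlap. The cause of these differences was not tested, apart from the library numbers. In 30 of 45 members the sign was kept in all 16 alternatives, and 15 turned in some. The biological coefficient of variation common to all genes tested was 0.270. The members had a median SE of 0.18, against 0.26 over all genes tested. With 3 mice per group and this SE, differences of the size of most members could not be told from 0.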
